A study of Mus musculus with 9 samples.

Results

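Bcl6, Bach2, Mef2b, Mef2c and Lmo2 encode nuclear regulators of the germinal centre, the site in spleen and lymph node in which B cells proliferate while their antibody genes are mutated. The 5 genes were taken by name from the deposited tables of spleen pre-GC B cells, which list 55536 genes. Of these, 12849 passed a filter on low counts and were tested, the 5 genes among them. RNA was sequenced from 4 mouse libraries of genotype WT and 5 of genotype p52Ki, titled p52ki/ki, which denotes a homozygous knock-in. The p52 protein is the NF-kB subunit made from Nfkb2, and the series title pairs it with the transcription factor ETS1 in germinal centre formation. The comparison asks how transcript levels of the 5 regulators differ between the genotypes. The knock-in allele, the sort gates, the strain, any immunisation and the age of the mice are not stated in the labels used here. Nor is it stated whether each library is a separate mouse. P-values therefore measure only how these samples spread, and part of that may be technical.

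BCL6 is a zinc finger repressor with a BTB domain that recruits corepressor proteins and is required for the germinal centre B cell state. BACH2 pairs with small MAF proteins on DNA and represses Prdm1, the gene of the plasma cell regulator BLIMP1. MEF2B and MEF2C bind DNA through a shared MADS domain, and MEF2B is known to activate Bcl6 in germinal centre B cells. LMO2 does not bind DNA itself and bridges LDB1 to helix-loop-helix and GATA factors.

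The promoter windows of Bcl6, whose level is read against its regulators below, and of Mef2b, the gene that passed the test, are shown first. Each window runs from 250 bases before to 50 bases after a RefSeq start on GRCm38.p6, and is printed 5′ to 3′ on the gene's strand. Capitals mark matches to 6 motifs searched on both strands. These include the ETS core CCGGAA, the octamer core ATGCAAA, the BCL6 site TTCNNAGAA, and the NF-kB and MEF2 consensus sites. The AP-1 and MARE core TGANTCA was also searched, with only C or G allowed at N. The Bcl6 window lies at chr16:23988803-23989102 on the minus strand, and the Mef2b window at chr8:70152511-70152810 on the plus strand, inside the gene as annotated by GENCODE.
Bcl6: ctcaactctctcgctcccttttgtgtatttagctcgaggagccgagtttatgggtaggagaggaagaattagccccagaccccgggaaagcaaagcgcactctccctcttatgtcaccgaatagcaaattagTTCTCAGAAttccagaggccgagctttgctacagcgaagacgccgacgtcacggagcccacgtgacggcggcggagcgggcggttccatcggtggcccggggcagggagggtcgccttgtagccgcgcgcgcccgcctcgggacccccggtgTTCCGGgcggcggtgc
Mef2b: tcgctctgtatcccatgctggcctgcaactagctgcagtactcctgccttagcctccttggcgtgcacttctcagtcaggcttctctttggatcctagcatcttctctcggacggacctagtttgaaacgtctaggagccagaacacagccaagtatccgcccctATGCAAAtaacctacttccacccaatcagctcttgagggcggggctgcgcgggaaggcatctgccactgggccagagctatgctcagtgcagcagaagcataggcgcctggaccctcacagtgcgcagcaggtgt

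In the Bcl6 window a BCL6 site began at position -118 from the start and an ETS core, read on the opposite strand, at position 35. A BCL6 site occurred in 5.19% and an ETS core in 14.9% of the 32851 promoter windows of the table. The second Bcl6 window also held both motifs, at positions -122 and -88. The Mef2b window held an octamer core at position -85, a motif found in 4.63% of windows, and no match to the other motifs. The Bach2 window in the table surrounds an internal start, at chr4:32417185-32417484, with an ETS core at position -11. Of 3 Mef2c windows, the one at chr13:83503784-83504083 held a BCL6 site at position -157, and the others held no match. The matches do not overlap one another, and none of the 7 windows matched the NF-kB consensus, which 8.46% of all windows did. A match describes letters in a window and was not tested as a binding site.

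MEF2B and MEF2C are relatives, so reads could in principle be shared between their genes. The first 120 coding bases of a transcript of each, which encode the start of the MADS domain, were 78.3% identical, with 26 positions that differ, shown in capitals.
Mef2b: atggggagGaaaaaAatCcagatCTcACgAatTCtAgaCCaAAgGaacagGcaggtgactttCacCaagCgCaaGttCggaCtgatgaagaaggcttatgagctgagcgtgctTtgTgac
Mef2c: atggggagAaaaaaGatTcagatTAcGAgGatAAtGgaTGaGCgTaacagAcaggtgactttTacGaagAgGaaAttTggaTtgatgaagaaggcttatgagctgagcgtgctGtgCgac

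The longest run of identical bases between any transcripts of Mef2b and Mef2c was 31, and between Mef2c and Mef2d it was 28. For Bcl6 against Bcl6b the longest shared run was 17 bases, for Bach2 against Bach1 20 bases, and for Lmo2 against Lmo1 16 bases. Sequencing cycles were longer than these runs. Exons of some neighbouring genes overlap the members. Bach2os, an antisense gene, covers 537 exonic bases of Bach2 (5.40% of its exons), and the library method does not mark strand, so their reads cannot be told apart there. Borcs8 shares 62 exonic bases with Mef2b on the same strand (4.42%). Gm37419 covers 21 bases of Bcl6 exons, and no other gene's exons overlap those of Mef2c or Lmo2.

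Libraries held 7368604 to 7937579 counts in WT and 4492160 to 6647650 in p52Ki, with 14033 to 14793 and 15504 to 16634 genes detected. The libraries carried the B cell markers, among them Cd79a, Cd79b, Ms4a1, Pax5 and Ebf1, at a summed level of 8957 to 10116 CPM (counts scaled to library size) in WT and 10112 to 13766 CPM in p52Ki. Over all genes, edgeR's quasi-likelihood test called 1096 of 12849 genes (8.53%) at a Benjamini-Hochberg adjusted p under 0.05, of which 577 were higher in p52Ki (4.49%) and 519 lower (4.04%). Offsets for GC content and length turned that split to 441 higher and 1261 lower, and also moved the median log2 fold change of all genes to -0.20. With those offsets centred the split was 540 higher and 524 lower. The genotypes did not overlap in 1777 genes (13.8%), with every p52Ki library higher in 938 (7.3%) and every p52Ki library lower in 839 (6.53%).

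Of the 5 regulators, Mef2b fell in p52Ki and the other 4 did not pass the test. All 5 fitted log2 fold changes were below 0, beside a median of 0.03 over all genes tested. One call among 5 members and 2 members without overlap stand beside backgrounds of 8.53% and 13.8%. Levels below are CPM on library sizes scaled by the trimmed mean of M-values (TMM), and fold changes are log2, p52Ki against WT.

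Mef2b (ENSMUSG00000079033, chr8:70139711-70167488, plus strand) had levels of 681, 623, 532 and 736 CPM in the WT libraries, in replicate order. The p52Ki libraries held 209, 219, 295, 419 and 295 CPM. Every p52Ki library lay below every WT library, and p52Ki replicate 4 was the highest of its genotype. The means were 643 ± 87.0 CPM (SD, n = 4) and 287 ± 84.2 CPM (SD, n = 5), and the level was 2.24-fold higher in WT. The log2 fold change was -1.16 ± 0.20 (SE), with a 95% interval from -1.60 to -0.73 and an adjusted p of 0.00626 by edgeR. Summed over libraries, 18982 WT and 8604 p52Ki counts lay behind these values. Leaving out any 1 library gave log2 fold changes from -1.31 to -1.07, with adjusted p of at most 0.0209. In bulk RNA, fewer cells that express a gene and less of its RNA per cell cannot be told apart.

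Bcl6 (ENSMUSG00000022508, chr16:23965052-23988852, minus strand) had WT levels of 63.4, 74.6, 72.9 and 43.7 CPM and p52Ki levels of 29.6, 43.4, 27.9, 49.8 and 42.4 CPM, in replicate order. The genotypes overlapped, because WT replicate 4 lay below p52Ki replicate 4. Means were 63.6 ± 14.2 and 38.6 ± 9.45 CPM. The log2 fold change of -0.72 ± 0.26 (95% interval -1.28 to -0.16) had an unadjusted p of 0.0156 and did not pass adjustment over all genes in edgeR (adjusted p = 0.113). At 1864 WT and 1143 p52Ki counts in sum, Bcl6 was read from far fewer counts than Mef2b. With offsets for GC content and length that also shifted all genes (median -0.20), Bcl6 came to -0.93 with an edgeR adjusted p of 0.0308, and with those offsets centred to -0.71 and 0.112.

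Bach2 (ENSMUSG00000040270, chr4:32238804-32586108, plus strand) had WT levels of 349, 257, 304 and 260 CPM and p52Ki levels of 229, 210, 252, 222 and 207 CPM, in replicate order. Every p52Ki library lay below every WT library, with a gap of a few CPM between p52Ki replicate 3 and WT replicate 2. Means were 293 ± 43.6 and 224 ± 18.3 CPM, and the log2 fold change was -0.39 ± 0.14 (95% interval -0.69 to -0.09), with an edgeR adjusted p of 0.114. The call depended on offsets for GC content and length: Bach2 passed with the offsets (-0.80, edgeR adjusted p 0.00442) and with centred offsets (-0.58, edgeR adjusted p 0.0196).

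Mef2c (ENSMUSG00000005583, chr13:83504034-83667080, plus strand) had WT levels of 700, 734, 551 and 622 CPM and p52Ki levels of 522, 598, 634, 571 and 655 CPM, in replicate order. The genotypes overlapped across most of their range. Means were 652 ± 82.1 and 596 ± 52.6 CPM. The log2 fold change was -0.13 ± 0.12 (edgeR adjusted p = 0.626), and its 95% interval, from -0.40 to 0.14, did not reach the fitted change of Mef2b. With GC content and length offsets it was -0.33, and with these centred -0.12.

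Lmo2 (ENSMUSG00000032698, chr2:103957986-103981878, plus strand) had WT levels of 33.3, 38.7, 24.0 and 14.7 CPM and p52Ki levels of 25.6, 17.1, 19.4, 23.6 and 19.1 CPM, in replicate order. The WT libraries spread so widely that all p52Ki libraries lay inside their range. Means were 27.7 ± 10.6 and 21.0 ± 3.49 CPM, a coefficient of variation of 38.1% in WT and 16.7% in p52Ki. The log2 fold change was -0.40 ± 0.33 (edgeR adjusted p = 0.553), with a 95% interval from -1.13 to 0.32, which holds both no change and a change near that of Mef2b. Across the other 4 regulators the coefficient of variation ran from 12.6% (Mef2c) to 22.3% (Bcl6) in WT and from 8.15% (Bach2) to 29.3% (Mef2b) in p52Ki.

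**Figure D1:**
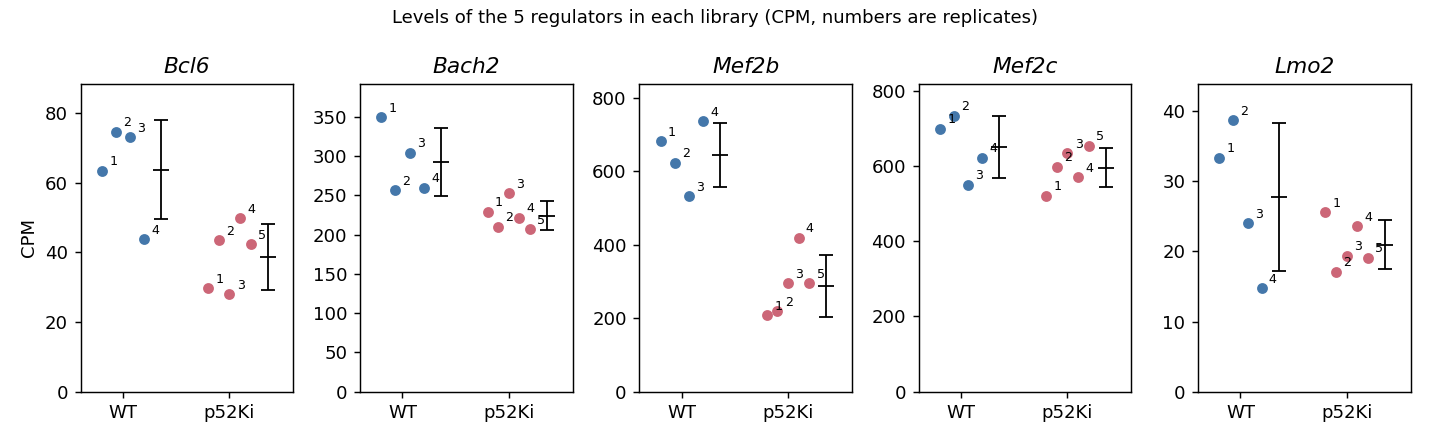
Level of each regulator (CPM, y axis, starting at 0) in each library of WT and p52Ki, with replicate numbers beside the points and mean ± SD as bars. The Mef2b points of p52Ki (209 to 419 CPM) sit below those of WT (532 to 736 CPM), whereas the Bcl6, Mef2c and Lmo2 points overlap.

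**Figure D2:**
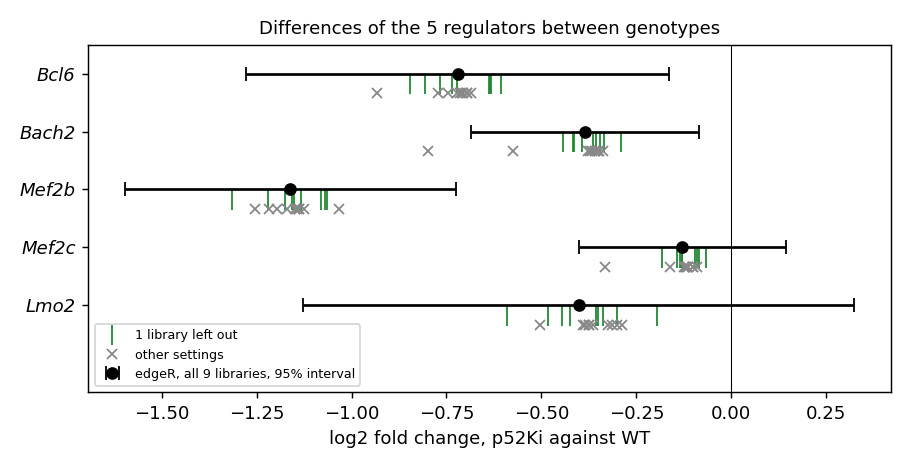
Log2 fold change, p52Ki against WT, of each regulator with its 95% interval. The Mef2b interval (-1.60 to -0.73) lies furthest from 0, and those of Mef2c and Lmo2 include 0.

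Levels can be compared between genes only per length of transcript, here as CPM per kilobase (kb) of annotated exon. On that scale Mef2b was the most abundant of the 5 in WT, at 458 ± 61.9 CPM per kb, above 99.3% of genes tested. Mef2c followed at 41.5 ± 5.22 CPM per kb, then Bach2 at 29.4 ± 4.39, Lmo2 at 12.8 ± 4.88 and Bcl6 at 9.50 ± 2.12 CPM per kb. Neighbours in this order were not all separated in WT. Lmo2 (6.80 to 17.9 CPM per kb) and Bcl6 (6.52 to 11.1) overlapped, and the ranges of Mef2c (35.1 to 46.7) and Bach2 (25.8 to 35.2) met at their edges.

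In p52Ki the order was the same, with Mef2b at 205 ± 60.0 CPM per kb, Mef2c at 37.9 ± 3.35, Bach2 at 22.5 ± 1.84, Lmo2 at 9.67 ± 1.61 and Bcl6 at 5.76 ± 1.41 CPM per kb. Here the range of Lmo2 (7.90 to 11.8 CPM per kb) lay above that of Bcl6 (4.17 to 7.43). The level of Bcl6 exceeded that of 58.7% of genes tested in WT and 43.6% in p52Ki. The choice of length matters for these levels. Divided by the longest transcript instead of all annotated exons, WT levels became 104 for Mef2c and 16.2 for Bcl6, so that Bcl6 stood level with Lmo2 (16.2 CPM per kb).

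**Figure D3:**
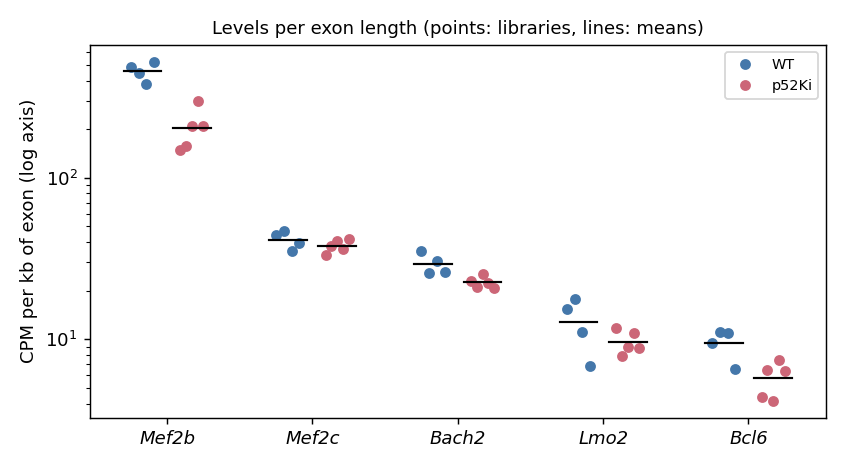
Level of each regulator per kb of annotated exon (CPM per kb, log axis) in each library of WT and p52Ki. Mef2b lies at 379 to 524 CPM per kb in WT and 149 to 299 CPM per kb in p52Ki, above the other 4 regulators in all 9 libraries.

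The balance between transcripts of the MEF2 proteins was also read in each library. The ratio of Mef2b to Mef2c per kb was 10.9, 9.50, 10.8 and 13.2 in WT and 4.48, 4.10, 5.21, 8.22 and 5.04 in p52Ki, with no overlap. Per kb of the longest transcript these ratios were lower, at 3.97 to 5.53 in WT and 1.72 to 3.43 in p52Ki. The ratio of Bcl6 to Irf4, which encodes a factor that represses Bcl6 at high levels, was 0.712 to 1.87 in WT and 0.103 to 0.325 in p52Ki, and 1.18 to 3.10 against 0.171 to 0.538 per kb of the longest transcript, with no overlap on either scale. The ratio of Bcl6 to Bach2 overlapped, at 0.249 to 0.431 in WT and 0.164 to 0.333 in p52Ki, and at 0.379 to 0.655 and 0.250 to 0.507 per kb of the longest transcript. These ratios describe the libraries and were not tested.

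Among the genes around BCL6, 3 of 10 known regulators (30.0%) passed the test, beside 8.53% of all genes tested. Irf4 stood at 24.8, 36.5, 32.3 and 44.9 CPM in WT and at 210, 173, 139, 112 and 111 CPM in p52Ki, and rose by a log2 fold change of 2.11 ± 0.26 (edgeR adjusted p = 0.00172), with every p52Ki library higher. Cd40, the receptor for T cell help, was 92.0 ± 14.5 CPM in WT and rose to 191 ± 20.7 CPM (1.05 ± 0.16, edgeR adjusted p = 0.00387). Stat5a, a cytokine-activated transcription factor, fell from 65.2 ± 7.13 to 29.4 ± 7.39 CPM (-1.15 ± 0.24, edgeR adjusted p = 0.0148). The median log2 fold change of the 10 regulators was 0.11.

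Of 17 corepressor genes tested of 18 listed, 1 fell and none rose by edgeR, a share of 5.88% called that is below the 8.53% over all genes. At an unadjusted p under 0.05, 1 was higher, and DESeq2, limma-voom and limma-trend also called 0 higher. Hdac1, a histone deacetylase, fell from 438 ± 22.4 to 260 ± 38.5 CPM (-0.75 ± 0.13, edgeR adjusted p = 0.00737), and the median of the list was -0.07. The BTB zinc finger relatives of BCL6 had 9 of 11 genes tested, of which 2 fell (22.2% called) and none rose by edgeR. Zbtb38 fell from 324 ± 60.3 to 200 ± 44.0 CPM (edgeR adjusted p = 0.0416) and Zbtb1 from 124 ± 20.8 to 62.8 ± 22.8 CPM (edgeR adjusted p = 0.0442). Both passed narrowly. The call of Zbtb38 was lost without any 1 of 8 libraries (all but p52Ki replicate 4), in limma-voom and with no count filter, and that of Zbtb1 without any 1 of 7 libraries (all but p52Ki replicates 1 and 4) and with no count filter. The list held no lower call in 2 of the 10 alternative settings that kept all libraries. At an unadjusted p under 0.05, 2 relatives were higher, and DESeq2 called 1, limma-trend 1 and limma-voom 0. These 2 were Zbtb18, at 1.16 ± 1.41 and 9.43 ± 4.41 CPM (log2 fold change 3.01), and Zbtb32, at 11.5 ± 9.14 and 44.8 ± 24.4 CPM (1.96). Bcl6b, the closest relative, was counted in a single library, at 0.153 CPM in p52Ki replicate 4, and was not tested.

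Of 21 genes that BCL6 is known to repress, 20 were tested and 16 of these had a log2 fold change above 0. By edgeR 8 rose (Irf4, Cdkn1b, Ccnd2, Bcl2, Cd69, S1pr1, Gpr183 and Notch2) and 1 fell (Chek1, a checkpoint kinase gene), so 45.0% of the list was called beside 8.53% of all genes, with a median log2 fold change of 0.87. The call of Cdkn1b was lost when WT replicate 4 or p52Ki replicate 1, 3 or 5 was left out. The call of Gpr183 was lost when any library but WT replicate 2 and p52Ki replicates 4 and 5 was left out. Ccnd2, which encodes cyclin D2, rose from 47.1 ± 10.4 to 261 ± 47.5 CPM (2.47 ± 0.21, edgeR adjusted p = 0.000313). S1pr1, the receptor that guides lymphocyte exit, went from 52.4 ± 17.5 to 273 ± 82.1 CPM (2.38 ± 0.29, edgeR adjusted p = 0.00166), and Notch2, a receptor of marginal zone B cell fate, from 17.9 ± 5.54 to 67.5 ± 20.6 CPM (1.91 ± 0.32, edgeR adjusted p = 0.00536). S1pr1 is also on the list of resting follicular B cell genes, and Irf4 on that of BCL6 regulators. Prdm1, repressed by both BCL6 and BACH2, had 7.40 ± 4.67 CPM in WT libraries against 8.18 ± 6.78 CPM (0.14 ± 1.01, edgeR adjusted p = 0.963). Its direction was not settled: the log2 fold change was -1.27 in limma-voom, -0.52 in limma-trend and -0.31 without p52Ki replicate 1, and it was also below 0 without WT replicate 2 (-0.02) or 4 (-0.11), without p52Ki replicate 2 (-0.03) and with GC content and length offsets (-0.11).

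Beside Bach2, 13 of 15 partners and targets were tested and 1 rose, a share of 7.69% that is near the 8.53% over all genes. Mafk, a small MAF partner of BACH2, went from 21.2 ± 10.1 to 62.0 ± 20.2 CPM (1.55 ± 0.36, edgeR adjusted p = 0.0223). Its adjusted p rose above 0.05 when WT replicate 3 or 4 or p52Ki replicate 2 or 3 was left out. None of the list fell by edgeR, while 1 gene was lower at an unadjusted p under 0.05 and DESeq2, limma-voom and limma-trend each called 1 lower. Hmox1, the haem oxygenase gene that BACH proteins repress, stood at 18.7 ± 6.93 and 26.5 ± 15.8 CPM (0.51 ± 0.48, edgeR adjusted p = 0.616). Bach1, the closest relative, was near the detection limit at 1.84 ± 3.06 and 2.17 ± 1.69 CPM, and Slc7a11 had no counts in any library. The median of the list was 0.23.

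Other MEF2 genes gave other values than Mef2b, and the differences between them were not tested. Mef2a had 51.8 ± 10.1 CPM in WT libraries against 56.6 ± 12.3 CPM in p52Ki libraries (0.13 ± 0.23, edgeR adjusted p = 0.829). Mef2d stood at 114, 110, 19.9 and 74.2 CPM in WT and at 238, 174, 210, 118 and 191 CPM in p52Ki. Each p52Ki library was above each WT library, by a narrow margin for replicate 4, and the log2 fold change of 1.23 ± 0.41 missed the threshold in edgeR (adjusted p = 0.0896) but passed in DESeq2 (0.0113), limma-voom (0.0421), limma-trend (0.0456) and edgeR on genes of at least 10 CPM in 4 libraries (0.0471). Among 15 MEF2 family and cofactor genes, all tested, 1 was called (6.67%, near the 8.53% over all genes). It was Ppp3ca, a catalytic subunit of the phosphatase calcineurin that activates MEF2 proteins, which rose from 39.9 ± 7.76 to 94.7 ± 27.3 CPM (1.24 ± 0.26, edgeR adjusted p = 0.0138). None fell by edgeR, at an unadjusted p under 0.05, or by DESeq2, limma-voom or limma-trend, and the median was 0.24.

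The LMO2 complex was present in part. Tal1, Gata1 and Gata2, partners known from blood stem cells and red cell precursors, and Ldb2, a relative of Ldb1, had 0 counts in all 9 libraries, which allows up to 0.394 to 0.652 CPM per library (3 counts, counting error only). Lyl1, the helix-loop-helix partner expressed in B cells, stood at 178 ± 27.6 and 179 ± 27.5 CPM (edgeR adjusted p = 0.982), and Ldb1, the bridging partner, at 19.7 ± 6.85 and 21.3 ± 5.60 CPM (edgeR adjusted p = 0.909). Of 12 genes tested of 17 listed, 1 was called (8.33%, near the 8.53% over all genes). It was Cbfa2t3, a corepressor gene, which rose from 44.9 ± 9.84 to 82.8 ± 17.0 CPM (0.88 ± 0.24, edgeR adjusted p = 0.0397). That call was lost without any 1 of 7 libraries (all but WT replicate 2 and p52Ki replicate 4), with GC content and length offsets and in limma-voom. The list held no call in 4 of the 10 alternative settings that kept all libraries. None fell by edgeR, at an unadjusted p under 0.05, or by DESeq2, limma-voom or limma-trend. The median was 0.12.

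**Figure D4:**
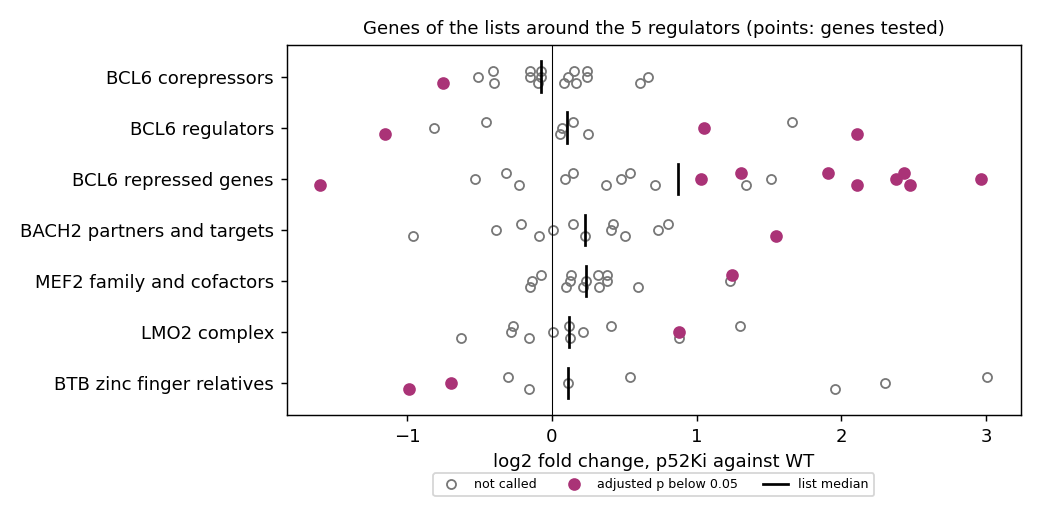
Log2 fold change, p52Ki against WT, of each tested gene on 7 lists around the 5 regulators, with genes of edgeR adjusted p under 0.05 filled and list medians as bars. The genes that BCL6 represses have the highest list median (0.87), and the other medians lie between -0.07 and 0.24. Furthest right is Zbtb18 of the BTB list (3.01, not called).

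The fall of Mef2b stood beside changes in germinal centre and division genes of the same libraries. Of 14 germinal centre B cell genes 9 fell and none rose by edgeR, a share of 64.3% called beside 8.53% of all genes tested. The median log2 fold change of these genes was -1.24, and 0 were higher at an unadjusted p under 0.05, in DESeq2, limma-voom and limma-trend. Among them Neil1, a DNA glycosylase gene, Gna13, of a G protein that confines B cells to the centre, and Rassf6 fell by 1.40, 0.84 and 2.05 on the log2 scale. Of 16 proliferation genes 15 fell by edgeR (93.8% called, median -1.22), a count of 8 without WT replicate 1 and 9 without p52Ki replicate 3. Under the 10 alternative settings that kept all libraries, the lowest count of calls was 1 for proliferation genes. It was 2 for germinal centre genes and 4 for the resting follicular genes below. The replication helicase genes Mcm2, Mcm5 and Mcm7 fell by 1.17, 1.23 and 1.00 on the log2 scale, and the cyclin gene Ccnb2 fell by 1.28. Of 10 resting follicular B cell genes 7 rose by edgeR (70.0% called, median 1.57), led by Ccr7 at 70.0 ± 18.7 and 531 ± 102 CPM, with Cd38 at 64.8 ± 5.19 and 231 ± 48.9 CPM and Klf2 at 14.8 ± 4.66 and 74.8 ± 21.1 CPM. The other 3 follicular genes, Fcer2a (-0.26), Cr2 (-0.02) and Cxcr5 (-0.30), had log2 fold changes below 0 and were not called. The summed level of germinal centre genes was 3925 to 5214 CPM in WT and 1228 to 2496 CPM in p52Ki, and that of proliferation genes 8263 to 10126 and 2600 to 6217 CPM. Replicate 4 was the highest p52Ki library in Mef2b and in both sums. Their part in the Mef2b result was not tested.

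**Figure D5:**
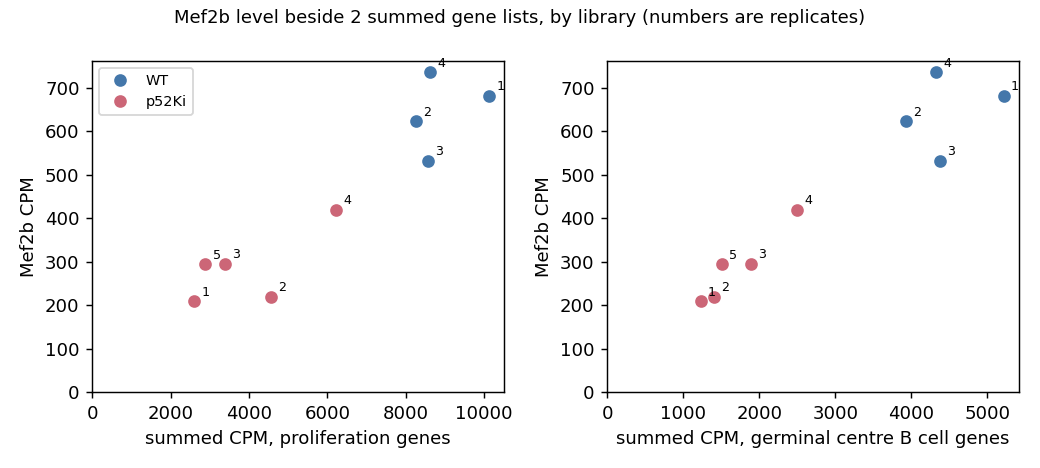
Mef2b level (CPM, y axis) against the summed level (CPM, x axis) of germinal centre B cell genes and of proliferation genes, a point per library. The p52Ki libraries lie at lower values on both axes than the WT libraries, with p52Ki replicate 4 (419 CPM of Mef2b) nearest to them.

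Markers of other cells were also read in sum. The T cell sums of the genotypes overlapped, and the sums of the other lists did not. Plasma cell markers summed to 1505 to 1969 CPM in WT and 722 to 1321 CPM in p52Ki, a sum carried mostly by Jchain, at 1252 ± 194 and 562 ± 202 CPM. Sdc1 on the same list had 0 to 4.84 CPM in WT and 6.74 to 37.9 CPM in p52Ki (edgeR adjusted p = 0.0762), and Mzb1 overlapped. T cell markers summed to 188 to 256 and 76.9 to 202 CPM, nearly all of it Lck, while Icos and Bcl11b had no counts. Lck itself did not overlap, at 187 to 248 CPM in WT and 76.9 to 184 CPM in p52Ki (edgeR adjusted p = 0.114). Myeloid markers summed to 75.5 to 187 and 193 to 321 CPM, with S100a8 and S100a9 at 0. Their largest part was Cst3, at 103 ± 29.9 and 136 ± 21.1 CPM. All 6 tested myeloid genes had log2 fold changes above 0, among them Lyz2 (1.92) and Ly6c2 (2.90), and none was called by edgeR. Erythroid, megakaryocyte and endothelial markers summed to 41.0 to 108 and 120 to 278 CPM, with Klf1 at 0. That sum was mostly Pecam1, at 71.4 ± 33.2 and 183 ± 54.6 CPM (edgeR adjusted p = 0.0256), with every p52Ki library higher. The part of these markers in the results was not tested.

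Patterns across the 9 libraries were compared among 9239 genes as the root mean square difference of centred log2 CPM, in which a small value means a like pattern. Closest to Mef2b was Rras2, a small GTPase gene, at a difference of 0.0927, with 39.0 ± 2.93 CPM in WT and 18.7 ± 6.08 CPM in p52Ki, followed by Ube2t (0.175) and Mcm7 (0.183). For Bcl6 the nearest were Syngr2 (0.159), Fh1 (0.173) and Mis18a (0.182). WT replicate 4 was the lowest WT library in Bcl6 and in each of these 3 genes. For Bach2 they were Rab5c (0.0888), Plekha2 (0.100) and Cdc37 (0.122), for Mef2c Wsb1 (0.0833), Sh3kbp1 (0.103) and Smc6 (0.105), and for Lmo2 Pmpcb (0.120), Hmg20b (0.150) and Srsf4 (0.184). Pmpcb shared the wide WT spread of Lmo2, at 63.8, 67.1, 40.7 and 21.6 CPM. These genes were picked for their likeness, so the low library and the spread they share with a member follow from that choice. The likeness is a description over libraries that share depth and genotype.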

How the data were processed

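RNA libraries of 4 WT and 5 p52Ki spleen pre-GC B cell samples were made, per the labels' protocols, with SMART-Seq v2 and Nextera XT. These methods amplify cDNA by PCR, mark no strand and carry no molecular identifiers, so the floors cover counting error only. The intervals of the log2 fold changes rest on the SE of the edgeR fit, which also includes the spread between libraries. The submitters' processing notes name featureCounts of Subread 1.6.2, HISAT2 2.1.0, SAMtools 1.8 and build GRCm38. The annotation release, strand setting and read filters are not stated there. Raw gene counts were deposited by the authors for 55536 genes and log2 CPM for 12849 genes, and the deposited log2 CPM equalled edgeR's log CPM of the counts (TMM, prior count 2) to 4.97e-14.

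The counts were tested in R 4.3.3 with edgeR 4.0.16 (filterByExpr, TMM, robust quasi-likelihood F test, no covariate, all 9 libraries), two-sided and adjusted by Benjamini-Hochberg over 12849 genes at 0.05. SE was the log2 fold change divided by the root of F. The test was checked on simulated data. The members and the 10 pathway and 5 marker lists were chosen with earlier results of these data known. Genes were named by rule: the members, relatives and partners (Mef2a, Mef2d, Bcl6b, Bach1, Prdm1, Irf4, Hmox1, Ldb1, Lyl1, Tal1), up to 4 called genes of smallest p per pathway list, and the 3 genes most like each member among those with mean log2 CPM of at least 1. One gene that the rule takes from the germinal centre list is not reported here. Other called genes of the BCL6 target list, Zbtb18, Zbtb32, single marker genes and genes at 0 were named after their values were seen. Exons are of GENCODE M21 on GRCm38, in which all 55536 identifiers were found under the deposited name. RefSeq promoter windows were held for 4 of the 5 members.

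The alternatives were DESeq2 size factors, no count filter, at least 10 CPM in 4 libraries, immunoglobulin and T cell receptor genes removed, the replicate number as a block, offsets for GC content and length, each library left out, DESeq2 1.42.0, and limma 3.58.1 as voom with quality weights or as trend. Offsets centred per library were added after seeing the data.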

Additional observations from a re-analysis of the deposited data

Results flagged for a closer look

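Of 102 groups (51 named genes in each genotype) 3 were at 0 in every library. Of the other 99, 8 had a highest or lowest library that stood apart from the rest by Dixon's 95% criterion, and about 4.95 would do so by chance, 1 in 20 groups. None of the 5 regulators was among them. Bcl6b was counted only in p52Ki replicate 4, at 0.153 CPM, with 0 in the other p52Ki libraries. WT replicate 3 was highest for Bach1, at 6.40 CPM against 0.830 CPM in the next library. WT replicate 2 was highest for Hdac1 (471 CPM, next 428) and for the replication gene Mcm2 (778 CPM, next 641). WT replicate 1 was lowest for Klf2, a regulator of lymphocyte quiescence, at 7.88 CPM against 16.6 CPM. p52Ki replicate 5 was lowest for Rab5c (46.5 CPM, next 57.0) and highest for Smc6 (163 CPM, next 136). p52Ki replicate 1 was highest for Hmg20b, at 62.9 CPM against 46.0 CPM.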

How the results depend on the processing

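Mef2b passed the threshold under all 19 alternatives. Its log2 fold change ran from -1.25 to -1.03 under 10 other settings, with adjusted p of at most 0.0481, and from -1.31 to -1.07 with 1 library left out. Bcl6 passed with GC content and length offsets (-0.93) and under no other setting, and ran from -0.84 to -0.61 with 1 library left out. Bach2 passed with GC content and length offsets (-0.80) and with those offsets centred (-0.58), and ran from -0.44 to -0.29 with 1 library left out. Mef2c and Lmo2 passed under no setting run. Mef2c ran from -0.18 to -0.07 and Lmo2 from -0.59 to -0.20 with 1 library left out, and from -0.33 to -0.09 and -0.50 to -0.29 under the other settings. No member changed sign. Over all genes, the 1096 calls became 1702 with GC content and length offsets, of which 25.9% were higher against 52.6% (median shifted to -0.20), 1064 with the offsets centred, 1766 in DESeq2, and 625 to 1108 with 1 library left out. Higher calls (577) were 995 in DESeq2 and 344 to 551 with 1 library left out. Lower calls (519) were 1261 with the offsets and 262 to 557 with 1 library left out. With no filter on low counts the median log2 fold change of all genes was 0.18. The cause of these shifts was not tested.

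Libraries with the same replicate number did not deviate together (r = -0.042, -0.017, -0.013 and -0.009 for 4 pairs, none best with its own number). The numbers thus gave no sign of pairing, though such correlations cannot show whether samples were handled in pairs. With the replicate number as a block, 129 genes were called, 97 higher and 32 lower, and the 10 pathway lists held 11 calls (8 higher, 3 lower) against 47 (18 and 29). In that fit Mef2b had -1.22 (adjusted p 0.0481), Bcl6 -0.77 (0.257), Bach2 -0.35 (0.264), Mef2c -0.16, Lmo2 -0.30 and Prdm1, which is no member, -0.33. Of the genes named around the members, Hdac1 (edgeR adjusted p 0.0670), Stat5a (0.0658) and Mafk (0.0628) did not pass with the block. Irf4 (0.0461), Cd40 (0.0470), Ccnd2 (0.0340), S1pr1 (0.0340) and Notch2 (0.0470) did pass with it. Lmo2 had 88 to 280 counts per library, the fewest of the members.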
